A study of Mus musculus with 2 samples.

Results

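Wnt feedback and canonical target genes were followed in RNA-seq of optic nerve, a white matter tract rich in oligodendrocytes (OLs), at P12. The 10 genes were *Axin2*, *Nkd1*, *Nkd2*, *Notum*, *Rnf43*, *Znrf3*, *Apcdd1*, *Sp5*, *Ccnd1* and *Tnfrsf19*. They were chosen by symbol for their place in the pathway, with earlier results of these data known. All 10 were found in both libraries, among 23951 gene symbols in all. The control library (1 library) came from mice heterozygous for the floxed *Tcf7l2* allele with Olig1-Cre (Tcf7l2 c/+; OLig1-cre), and the mutant library (1 library), called *Tcf7l2*ΔHMG, from mice homozygous for it with the same Cre (Tcf7l2 c/c; OLig1-cre). Both genotypes therefore carried Cre and at least 1 floxed allele. Olig1-Cre acts in the OL lineage, so astrocytes, vessels and meninges of the dissected nerve could still make the full-length factor, and recombination removes only the exon of the DNA-binding HMG box and keeps the reading frame. The mice were of mixed C57Bl/6;129Sv;CD-1 background, and the number of animals pooled per library is not stated.

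In canonical Wnt signalling, β-catenin is held low by a destruction complex until a Wnt ligand binds Frizzled and LRP5/6. Stabilized β-catenin then enters the nucleus and joins TCF/LEF factors, among them Tcf7l2, to switch on target genes. Many of these targets feed back on the pathway. *Notum* acts on the ligand, *Rnf43*, *Znrf3* and *Apcdd1* act at the receptor, *Nkd1* and *Nkd2* act on Dishevelled, and *Axin2* acts in the destruction complex. Their transcripts are commonly read as a measure of pathway output. Sustained Wnt signalling is known to hold back OL differentiation, and the comparison asks how these transcripts stood when Tcf7l2 could not bind DNA in the OL lineage.

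All values are FPKM, the number of fragments scaled to transcript length and to the size of the library, as computed by Cufflinks. Each is followed by its Cufflinks confidence interval in brackets. FPKM is a level per length, so different genes can be set side by side. An interval covers the sampling error of its own library, and animal-to-animal variation is not in it. With 1 library per genotype no p-value can be given, and a gene is called higher or lower here only as past a fold of 1.5, the cutoff of the study, on the scale of FPKM plus 0.1. That pseudocount understates the change of low genes. Genes counted as tested reached 1 FPKM in either library, with the Cufflinks status OK on each side (14199 symbols). Of the 10 genes, 9 passed this filter and *Sp5* did not. The FPKM of each of the 10 genes lay inside its own interval in both libraries, although this was not so for 7.26% of named rows in the control library and 8.64% in the mutant. The control library was the shallower. The FPKM worth of 1 effective fragment, taken from the widths of the intervals of 4728 reference rows, was a median of 1.37 times larger there, with 5th and 95th percentiles of 1.04 and 1.79.

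Of the 10 genes, 3 were past the cutoff and higher in *Tcf7l2*ΔHMG, namely *Nkd1*, *Notum* and *Rnf43*, and none was lower. These 3 are negative regulators that act upstream of the destruction complex, as are *Nkd2*, *Znrf3* and *Apcdd1*, which stayed under the cutoff. Over all genes tested, 15.4% were higher by that fold and 8.52% lower, 23.9% in all. Past a fold of 2 were *Nkd1* and *Notum*, 2 genes higher and 0 lower, beside 6.87% of all genes higher and 3.68% lower. All 10 genes had a log2 ratio above 0, beside 54.6% of all genes tested, and the ratios ran from 0.03 for *Apcdd1* to 1.29 for *Nkd1*. The median over the 10 genes was 0.36, beside 0.047 over all genes tested. The 5th and 95th percentiles of all genes were −0.83 and 1.18, so *Nkd1* alone of the 10 lay outside that range. The intervals of the libraries did not overlap, with the mutant higher, for 6 of the 10 genes, beside 30.0% of all genes tested (52.4% in either direction). They overlapped for *Nkd2*, *Znrf3*, *Apcdd1* and *Sp5*. The study describes *Axin2*, *Ccnd1*, *Sp5* and *Ctnnb1*, the β-catenin gene, as upregulated in mutant optic nerves at P12. In the FPKM used here, *Axin2* (log2 ratio 0.40), *Ccnd1* (0.40) and *Ctnnb1* (0.14) were higher in the mutant, with intervals that did not overlap. Their ratios stayed under the cutoff, and *Sp5* (0.04) did not pass the filter.

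**Figure D1:**
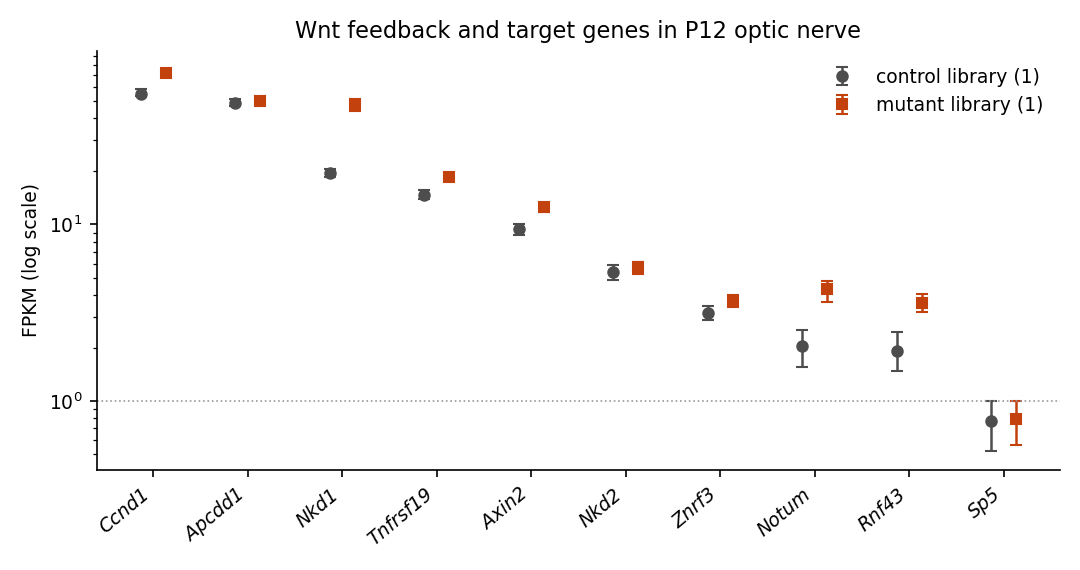
FPKM of the 10 genes (log axis) in the control library (grey circles) and the mutant library (orange squares), 1 library each, ordered by the control level, with bars for the Cufflinks interval and a dotted line at 1 FPKM. *Nkd1* went from 19.5 in the control to 47.9 in the mutant, beside *Apcdd1* at 48.9 and 50.1, and *Sp5* lay below 1 FPKM in both.

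The ligand-directed gene was *Notum*, which encodes a secreted carboxylesterase that strips the palmitoleate group from Wnt proteins and so inactivates them. *Notum*, on chromosome 11 from 120515103 to 120522151 (mm9, the build named in the submitters' processing notes), was measured at 2.05 FPKM (1.56 to 2.53) in the control library and 4.33 FPKM (3.63 to 4.81) in the mutant. The mutant value was 2.06-fold that of the control, a log2 ratio of 1.04, and the intervals did not overlap. Taking the nearest and the farthest bounds of the intervals, the fold ran from 1.42 to 2.96, so its lower end was below the cutoff. *Notum* was a low transcript, and the relative width of its interval equalled the spread of about 71.3 fragments for the control and 207 for the mutant. Among all genes tested, 93.5% had a lower log2 ratio.

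Genes that *Notum* works against and alongside were listed as Wnt lipidation and glypicans. *Porcn*, the enzyme that attaches the lipid, was at 18.5 and 14.9 FPKM, and *Wls*, which carries Wnt proteins to the cell surface, at 49.0 and 55.9 FPKM, in the control library and the mutant, respectively. Both stayed under the cutoff. Of the 7 tested genes of the list, *Gpc3* was past the cutoff and higher (45.9 to 75.9 FPKM) and *Gpc2* lower (6.88 to 4.15 FPKM), and the median log2 ratio was 0.19. Glypicans are heparan sulphate proteoglycans that hold Wnt proteins at the cell surface. The FPKM of *Gpc3* lay outside its own interval in both libraries.

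*Rnf43* and *Znrf3* encode related transmembrane E3 ubiquitin ligases that clear Frizzled from the cell surface. *Rnf43*, on chromosome 11 from 87476589 to 87549041 (mm9), was measured at 1.91 FPKM (1.48 to 2.47) in the control library and 3.59 FPKM (3.17 to 4.02) in the mutant, a fold of 1.84 and a log2 ratio of 0.88. The fold from the bounds of its intervals ran from 1.27 to 2.61. *Znrf3*, on chromosome 11 from 5176332 to 5344857 in the control table, was measured at 3.15 FPKM (2.87 to 3.45) and 3.70 FPKM (3.42 to 3.97), with intervals that overlapped narrowly and a log2 ratio of 0.22. The pair thus differed in its ratios. In the control, *Rnf43* stood at 0.61 of the *Znrf3* level (0.43 to 0.86 from the bounds), and in the mutant at 0.97 (0.80 to 1.17). Such a ratio within a library does not depend on how the libraries were scaled, and the ranges from the bounds overlapped.

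The ligases are inhibited by R-spondins, secreted proteins that bind them together with Lgr4, Lgr5 or Lgr6. Of 5 tested genes of this axis, 2 were past the cutoff and higher and none was lower. *Rspo3* was at 8.01 FPKM in the control library and 13.2 FPKM in the mutant, and *Rspo2* at 0.66 and 1.41 FPKM. *Rspo2* passed the filter on low values only through the mutant library, where it was the higher. *Rspo1* (3.22 and 2.84 FPKM), *Lgr4* (10.2 and 10.4 FPKM) and *Lgr6* (1.69 and 1.87 FPKM) had intervals that overlapped between the libraries. *Lgr5*, itself a Wnt target in other tissues, stayed below 1 FPKM in both.

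*Apcdd1* encodes a membrane glycoprotein that binds Wnt and LRP5 and lowers signalling. It was among the most abundant of the 10 genes and was nearly level between the libraries, at 48.9 FPKM (47.3 to 51.2) in the control library and 50.1 FPKM (48.9 to 52.1) in the mutant. Its log2 ratio of 0.03 had bounds of −0.07 and 0.14, which lie inside the cutoff on both sides. Of its binding partners, *Lrp5* was at 4.85 FPKM in the control library and 8.99 FPKM in the mutant (log2 ratio 0.88, past the cutoff), and *Lrp6* at 9.68 and 12.4 FPKM (log2 ratio 0.36).

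The Naked cuticle genes *Nkd1* and *Nkd2* encode proteins that bind Dishevelled and dampen the signal. *Nkd1*, on chromosome 8 from 91045243 to 91118786 (mm9), was measured at 19.5 FPKM (18.5 to 20.7) in the control library and 47.9 FPKM (44.2 to 51.5) in the mutant. This was the highest ratio of the 10 genes, a fold of 2.44 with 2.13 to 2.77 from the bounds, so the cutoff lay below the whole range. Of all genes tested, 95.7% had a lower log2 ratio. *Nkd2*, on chromosome 13 from 73956022 to 73985079 in the control table, was measured at 5.35 FPKM (4.85 to 5.85) and 5.71 FPKM (5.26 to 6.16), with overlapping intervals and a log2 ratio of 0.09. The *Nkd1* level was 3.65 times that of *Nkd2* in the control (3.16 to 4.27 from the bounds) and 8.38 times in the mutant (7.17 to 9.79), and these ranges did not overlap. *Nkd1* came next after *Apcdd1* in both libraries, with separate intervals in the control and overlapping ones in the mutant. Although the mutant library was the deeper, the half-width of the *Nkd1* interval was 7.71% of its FPKM there and 5.60% in the control, so the mutant value was measured with the larger relative error. The 3 Dishevelled genes, whose products Nkd proteins bind, had log2 ratios between −0.18 and 0.08, and none was past the cutoff.

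**Figure D2:**
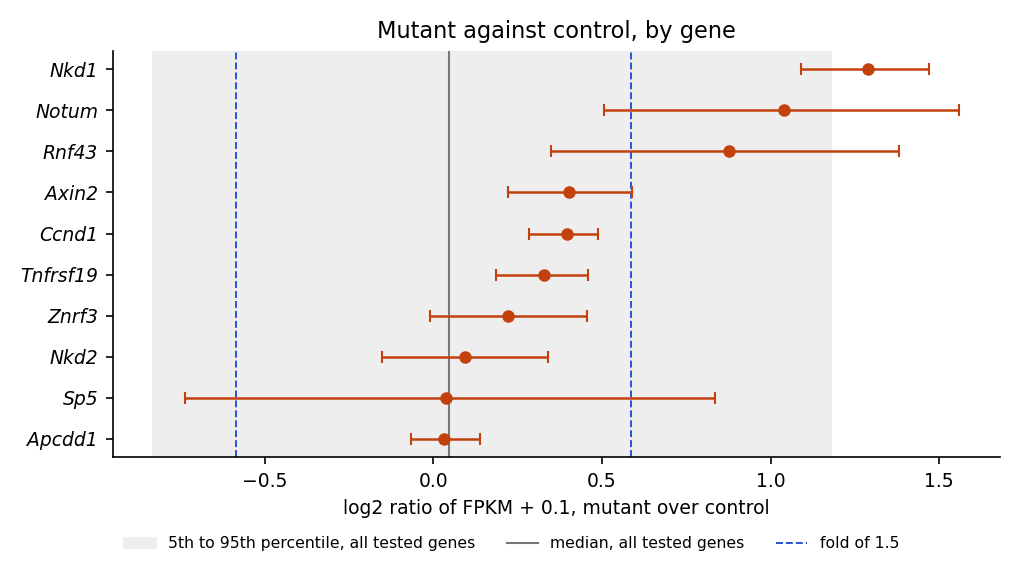
Log2 ratio of mutant over control FPKM plus 0.1 for each of the 10 genes (1 library per genotype), with bars from the nearest to the farthest Cufflinks bounds, against the 5th to 95th percentile (grey band) and the median (grey line) of all genes tested. *Nkd1* (1.29), *Notum* (1.04) and *Rnf43* (0.88) lie to the right of the dashed line at a fold of 1.5, and the bars of *Notum* and *Rnf43* cross it.

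*Axin2* encodes a scaffold of the destruction complex and is the gene most often used to report canonical signalling. *Axin2*, on chromosome 11 from 108781663 to 108812095 (mm9), was measured at 9.42 FPKM (8.74 to 10.1) in the control library and 12.5 FPKM (11.8 to 13.2) in the mutant. The intervals did not overlap, but the fold of 1.32 stayed under the cutoff (1.17 to 1.5 from the bounds). *Axin1*, the paralog that is expressed without Wnt input, was at 9.20 and 10.6 FPKM, a log2 ratio of 0.21. *Axin2* thus stood at 1.02 times the *Axin1* level in the control (0.88 to 1.19 from the bounds) and at 1.17 times in the mutant (1.04 to 1.32), ranges that overlapped. The *Nkd1* level, by contrast, was 2.07 times that of *Axin2* in the control (1.83 to 2.37) and 3.83 times in the mutant (3.35 to 4.36). The destruction complex list of 14 genes also holds the gene of its substrate, β-catenin, and regulators of Axin. None of the 14 was past the cutoff in either direction, and their median log2 ratio was −0.01. *Apc*, a core scaffold, came closest, at 32.1 and 47.0 FPKM (log2 ratio 0.55). *Ctnnb1*, which encodes β-catenin, had a log2 ratio of 0.14.

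Of the target genes that act outside the feedback loop, *Ccnd1* encodes cyclin D1, which drives cells into the cycle with Cdk4 and Cdk6. *Ccnd1*, on chromosome 7 from 152115836 to 152125830 (mm9), was the most abundant of the 10 genes in both libraries, at 55.2 FPKM (53.8 to 58.6) in the control library and 72.7 FPKM (71.4 to 75.4) in the mutant. Its log2 ratio of 0.40 was under the cutoff, with a fold of 1.22 to 1.40 from the bounds. Among the other D-type cyclins, *Ccnd3* was past the cutoff, at 39.8 FPKM in the control library and 76.4 FPKM in the mutant, and *Ccnd2* was not, at 18.03 and 22.3 FPKM. *Ccnd1* was therefore at 1.39 times the *Ccnd3* level in the control (1.35 to 1.67 from the bounds) and at 0.95 times in the mutant (0.89 to 1.02). *Cdk4* was at 109.7 and 116.0 FPKM, and its FPKM lay above its own interval in both libraries. None of the 6 markers of cycling cells listed was past the cutoff, and their summed FPKM was 119.8 in the control library and 112.2 in the mutant. Of these markers, 2 had a log2 ratio above 0 and 4 had one below 0.

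*Tnfrsf19*, also called Troy, encodes a receptor of the tumour necrosis factor family. On chromosome 14 from 61582671 to 61665692 (mm9), it was measured at 14.8 FPKM (14.0 to 15.7) in the control library and 18.6 FPKM (17.8 to 19.2) in the mutant. The intervals did not overlap, and the log2 ratio of 0.33 was under the cutoff. *Sp5*, which encodes an Sp-family zinc finger transcription factor induced directly by β-catenin, was the lowest of the 10 genes. On chromosome 2 from 70312980 to 70315783 (mm9), it was measured at 0.76 FPKM (0.52 to 1.0) and 0.79 FPKM (0.56 to 1.0). The width of its interval equalled the spread of about 39.5 fragments for the control and 50.1 for the mutant, and its fold from the bounds ran from 0.60 to 1.79. A 1.5-fold difference of *Sp5* in either direction thus lay inside these bounds. Its relative *Sp8* was listed at 0 in the control library and at 0.12 FPKM in the mutant.

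The order of the 10 genes was close in both libraries. *Ccnd1*, *Apcdd1*, *Nkd1*, *Tnfrsf19*, *Axin2* and *Nkd2* followed each other from the highest down in each, and *Sp5* came last in each. In the control, neighbours in this order had intervals that did not overlap, except for *Notum* and *Rnf43*. In the mutant, *Apcdd1* and *Nkd1* were not separated, nor were *Notum*, *Znrf3* and *Rnf43*. The summed FPKM of the 10 genes was 161.1 in the control library and 219.8 in the mutant.

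Promoter sequence was at hand for 6 of the 10 genes, with 8 start sites, in a RefSeq table (GRCm38.p6). These coordinates are not those of the mm9 files. The 250 bases before each start were searched on both strands for CTTTGAT (reverse complement ATCAAAG), for CTTTGAA (reverse complement TTCAAAG) and for CTTTGTT (reverse complement AACAAAG), sequences of the kind that TCF/LEF factors bind. At least 1 of the 3 occurred in 3954 of 32851 such windows of all genes, CTTTGAT in 3.21%, CTTTGAA in 4.46% and CTTTGTT in 5.03%. Matches were found at *Sp5* and at 1 of 2 starts of *Tnfrsf19*, and not in these windows of *Axin2*, *Nkd1*, *Nkd2* and *Rnf43*. Both windows with a match are given here, then that of *Axin2*, the usual reporter gene, and that of *Nkd1*, the gene with the highest ratio. They are written in the direction of the gene, and capitals mark the matches.
*Sp5*, chr2:70474673-70474922, plus strand: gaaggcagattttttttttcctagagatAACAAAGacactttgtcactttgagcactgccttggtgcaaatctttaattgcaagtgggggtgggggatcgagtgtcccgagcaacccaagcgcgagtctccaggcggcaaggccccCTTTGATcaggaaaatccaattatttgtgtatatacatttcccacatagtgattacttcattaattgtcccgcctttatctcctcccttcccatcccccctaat
*Tnfrsf19*, chr14:61037988-61038237, minus strand: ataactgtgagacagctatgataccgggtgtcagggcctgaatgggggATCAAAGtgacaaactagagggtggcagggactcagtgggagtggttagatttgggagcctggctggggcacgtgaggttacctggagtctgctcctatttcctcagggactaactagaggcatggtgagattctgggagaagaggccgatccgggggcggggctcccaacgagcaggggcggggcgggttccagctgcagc
*Axin2*, chr11:108920099-108920348, plus strand: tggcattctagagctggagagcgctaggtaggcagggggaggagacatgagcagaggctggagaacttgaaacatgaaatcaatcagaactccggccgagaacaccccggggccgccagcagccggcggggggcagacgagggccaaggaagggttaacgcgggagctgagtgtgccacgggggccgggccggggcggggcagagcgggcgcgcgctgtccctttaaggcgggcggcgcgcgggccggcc
*Nkd1*, chr8:88527383-88527632, plus strand: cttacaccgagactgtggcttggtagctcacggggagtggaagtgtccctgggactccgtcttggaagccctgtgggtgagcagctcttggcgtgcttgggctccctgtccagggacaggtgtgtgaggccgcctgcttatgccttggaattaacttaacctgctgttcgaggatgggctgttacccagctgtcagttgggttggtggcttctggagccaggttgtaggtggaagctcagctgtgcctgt
In *Sp5* the matches began 222 and 104 bases before the start (AACAAAG and CTTTGAT), and in *Tnfrsf19* 202 bases before it (ATCAAAG). In the GENCODE M21 annotation the *Sp5* and *Axin2* windows overlap no gene. The *Nkd1* window lies in an intron, ahead of a start inside the gene. Both *Rnf43* windows overlap the *Rnf43* gene, and 1 of them overlaps an exon of it. The *Tnfrsf19* window also lies inside its gene and overlaps an exon of *Gm41168*, which runs on the opposite strand. The genes with a match, *Sp5* and *Tnfrsf19*, had log2 ratios of 0.04 and 0.33. Enhancers and more distant sites were not searched, and a match is not a binding site.

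The genes of the pathway around this set were described by lists that share no gene with it. Of 13 tested other feedback genes, 4 were past the cutoff and higher and 1 was lower, with a median log2 ratio of 0.20. The higher genes were *Kremen1* (9.01 to 14.2 FPKM), a receptor for Dkk proteins, *Sfrp1* (10.9 to 17.4 FPKM), a secreted Wnt-binding inhibitor, *Fzd7* (7.52 to 11.4 FPKM), a Frizzled receptor, and *Dact2* (1.18 to 2.24 FPKM), a Dishevelled-binding protein. The lower gene was *Draxin* (16.5 to 10.5 FPKM), which encodes a secreted guidance cue and Wnt inhibitor. *Lef1* (2.71 and 2.84 FPKM) and *Tcf7* (5.67 and 5.68 FPKM), TCF/LEF genes that are Wnt targets elsewhere, had overlapping intervals.

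Of 16 tested other canonical targets, 3 were past the cutoff and higher, 1 was lower, and the median log2 ratio was 0.27. *Fgf18*, a fibroblast growth factor gene, was at 0.90 FPKM in the control library and 2.53 FPKM in the mutant, the transcription factor gene *Twist1* at 3.53 and 6.99 FPKM, and the homeobox gene *Gbx2* at 3.71 and 6.17 FPKM. *Cd44*, which encodes a hyaluronan receptor, was at 13.9 and 8.33 FPKM. *Myc* had a log2 ratio of 0.49. Over all 79 genes of these lists, the D-type cyclins and their kinases included, 62 were tested, of which 12 were higher (*Ccnd3* among them) and 3 lower by the cutoff, with a median log2 ratio of 0.16. *Fgf18* and *Rspo2* passed the filter only through the mutant library. With at least 1 FPKM required in both libraries 10 genes were higher and 3 lower, beside 12.2% and 7.22% of all genes. The counts under the main filter were read beside the 15.4% and 8.52% of all genes tested, and the libraries give no test of whether the lists differ from other genes.

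**Figure D3:**
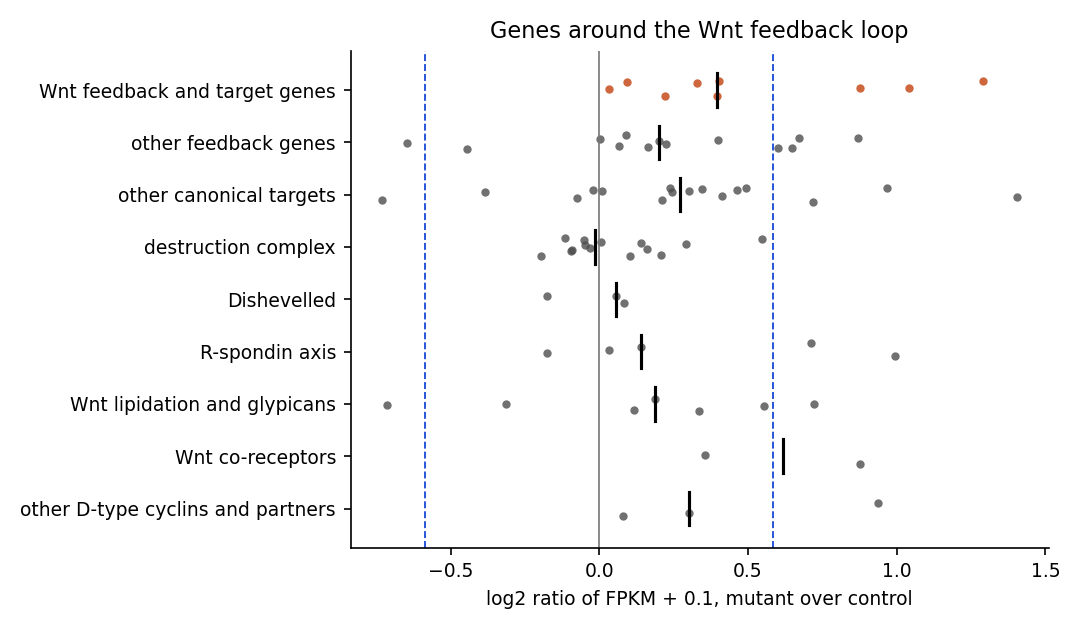
Log2 ratio of mutant over control FPKM plus 0.1 for tested genes of each list (1 point a gene, vertical jitter only), with a black bar at the list's median, a grey line at 0 and dashed lines at a fold of 1.5. Of the Wnt feedback and target genes (orange) the 9 tested are drawn, all to the right of 0. The 14 genes of the destruction complex list, which also holds β-catenin and regulators of Axin, have a median of −0.01.

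*Tcf7l2* itself was at 17.8 FPKM in the control library and 14.6 FPKM in the mutant, a log2 ratio of −0.28. A gene total does not check the deletion of a single exon whose removal leaves the transcript in frame. *Tcf7l1*, a relative that mostly represses, was at 10.05 and 14.9 FPKM (log2 ratio 0.57).

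The tissue differed between the libraries in its cell type markers, none of which was at 0 in either library. Of 8 mature OL markers, 6 were past the cutoff and lower in the mutant, and their summed FPKM was 13590 in the control library and 5966 in the mutant. Of 6 OPC markers, 1 was higher and 2 were lower (summed 417.5 and 366.4 FPKM). Of 6 astrocyte markers, 1 was higher (summed 5050 and 5963 FPKM), and none of 6 microglia markers was past the cutoff (164.9 and 207.5 FPKM). Of 6 endothelial markers, 2 were lower (141.1 and 98.1 FPKM), and of 6 pericyte markers 1 was higher and 1 lower (263.8 and 340.7 FPKM). A sum leans on the most abundant markers of its list. *Gpr17* led the OPC sum (235.0 and 155.8 FPKM), and *Vtn* led the pericyte sum (159.9 and 256.4 FPKM). Of 6 meningeal fibroblast markers, 2 were higher (817.5 and 1140 FPKM). Of 5 tested neuron markers, 4 were higher (summed 24.8 and 40.3 FPKM over 6 listed). All 4 measurements of red blood cell markers were higher (162.9 and 402.7 FPKM, with *Hba-a1* and *Hba-a2*, which share 1 merged row, counted once). The neuron marker *Rbfox3* (0.66 and 1.51 FPKM) and the red blood cell marker *Alas2* (0.61 and 1.39 FPKM) passed the filter only through the mutant library. Of 2 tested skeletal muscle markers, 1 was higher (summed 14.1 and 17.3 FPKM over 6 listed). The optic nerve label was thus met by high OL and astrocyte markers and low neuron and muscle markers. In whole tissue, fewer cells of a type and less RNA per cell cannot be told apart, and the part of these marker differences in the values of the 10 genes was not tested.

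The sign of most of the 10 ratios held under each scaling except an equal sum over all rows. Unnamed rows, which belong to the assembly of each library, held 70.7% of the control library by summed FPKM and 80.7% of the mutant library. When all rows of each library were set to an equal sum, the median log2 ratio of all genes moved from 0.047 to −0.61, with 4.51% of genes higher and 52.1% lower, in place of 15.4% and 8.52%. On that scale *Nkd1* (0.62), *Notum* (0.38) and *Rnf43* (0.22) stayed above 0 and the other 7 genes went below it, with *Axin2* at −0.26, *Ccnd1* at −0.27 and *Apcdd1* at −0.64. Relative to the median of all genes, the median of the 10 genes lay 0.32 higher on the deposited scale and 0.30 higher on this one. Centring on the median, or setting only the named rows to an equal sum, took *Apcdd1* and *Sp5* just below 0 and left the other 8 above it.

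**Figure D4:**
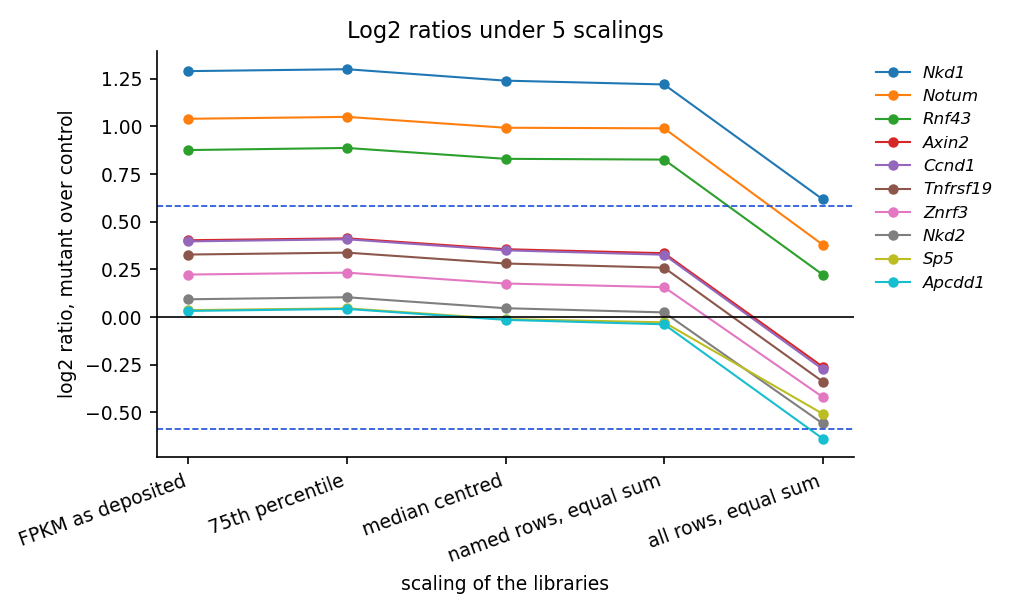
Log2 ratio of mutant over control for the 10 genes (1 line a gene, 1 library per genotype) under 5 ways of scaling the libraries, with dashed lines at a fold of 1.5 in either direction. *Nkd1* stays above the cutoff in each, from 1.29 as deposited to 0.62 with an equal sum over all rows, where *Axin2* lies at −0.26.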

How the data were processed

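RNA was isolated from optic nerves at P12 and sequenced as 1 control and 1 *Tcf7l2*ΔHMG library. TopHat (default settings) and Cufflinks were the tools of the authors, and each row of the deposited tables holds an FPKM, its confidence bounds and a status. The submitters' processing notes name mm9 as the build, and the versions are not given in the sources used here. Loci were printed with 1 added to the listed start, since Cufflinks counts from 0. No read counts were analysed here, and the depths were compared through the widths of the intervals.

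Comma-merged names were split and rows of a symbol summed, and symbols of both libraries were joined. Log2 ratios were taken after a pseudocount of 0.1 was added. "Effective fragments" are the count whose Poisson spread, taken as 2 standard deviations on either side, equals the relative width of an interval. Groups came from the genotype labels. No test was possible with 1 library per genotype. The counting was tested on simulated data. The 10 genes, the lists and the naming rule were chosen with earlier results of these data known. The rule took all 10 genes, genes of the other lists past the cutoff, and paralogs or partners of the 10 genes. *Apc*, *Porcn*, *Wls*, *Lrp6* and *Myc* were added after their values were seen. Alternatives were pseudocounts of 1 and 0.01, other filters, scalings and row rules, a fold above 2, and intervals that do not overlap. Promoters came from a RefSeq table (GRCm38.p6), and a planned comparison of proteins was not run. Tables were handled in pandas 2.3.3 and numpy 2.4.6 under Python 3.11.15, and plots were drawn in matplotlib 3.10.9.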

Additional observations from a re-analysis of the deposited data

Results flagged for a closer look

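Unnamed rows ahead of *Nkd1* were seen in the mutant library only. Unnamed rows entered no comparison between genes and were used only in the sum over all rows of the scaling alternative. The mutant table lists 4 unnamed rows within 5 kb before the first base of the *Nkd1* row (chromosome 8, from 91042018 to 91044998 in mm9), with a summed FPKM of 8.98, and the control table lists 0. The last of them ends 244 bases before the *Nkd1* row. The FPKM of that row, 6.31, lay above its own interval of 1.25 to 3.39, so the sum is not well backed by the intervals, whose bounds sum to 2.60 and 7.14. After the last base of *Nkd1*, the control table lists 3 unnamed rows with a summed FPKM of 9.14 and the mutant table none within 5 kb. Rows of this kind come from an assembly made for each library. Of 13142 genes compared, 5.90% had at least 1 such row within 5 kb on the lower-coordinate side in the mutant table and none there in the control table, and 3.01% the reverse. Over both sides, *Nkd1* had such rows in both tables. The part of the unequal depth in these rows was not tested.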

How the results depend on the processing

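With the libraries set to an equal sum over all rows, 1 of the 10 genes was past the cutoff and higher and 1 was lower, and their median log2 ratio was −0.31. Over the 62 tested genes of the other pathway lists, 1 was then higher and 23 were lower, with a median of −0.49. On this scale 4.51% of all genes were higher and 52.1% lower, with a median of −0.61. The alternative's construction shows the cause, a factor of 0.63 applied to every mutant value. With a filter of at least 5 FPKM in at least 1 library, 1 gene, *Nkd1*, was higher. *Notum*, *Rnf43*, *Znrf3* and *Sp5* fall below that filter. Of all genes that passed it, 12.2% were higher. That share is to be read beside *Nkd1*, *Axin2*, *Nkd2*, *Apcdd1*, *Ccnd1* and *Tnfrsf19* only. By intervals that do not overlap, at any fold, 6 of the 10 genes were higher, beside 30.0% of all genes. A fold above 2 left 2 genes, *Nkd1* and *Notum*, beside 6.87% of all genes. The other alternatives kept 3 genes higher and 0 lower, beside 11.8% to 16.9% of all genes higher and 7.06% to 10.7% lower. Filters and row rules leave the ratio of each of these 3 genes as it is. Of the pseudocounts and scalings, which can move it, the equal sum over all rows alone took *Notum* (0.38) and *Rnf43* (0.22) under the cutoff, and *Nkd1* stayed past it in each. No paired analysis was possible because each genotype has 1 library, and for the same reason no replicate could be left out. The depth limits *Sp5* most, with an interval half-width of 31.6% of its FPKM in the control.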
